A study of Mus musculus with 6 samples.

Results

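Chemokines, cytokines and their receptors were examined in the stria vascularis of Slc26a4 knockout mice. The set held 47 genes, taken as every probe set whose platform gene symbol was exactly one of the 47 names. All 47 were on the array, with 86 probe sets in all, out of 45037 probe sets that are not controls. A gene was called above background if its probe set had a mean of log2(signal + 16) over all arrays at or above the 40th percentile of those probe sets, which is a signal of about 43.9. By this rule 25 of the 47 genes (53.2%) were above background on 37 of the 86 probe sets (43%). For comparison, 12428 of the 18193 genes with a probe set of their own (68.3%) were above background.

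The stria vascularis is the vascularised epithelium of the cochlear lateral wall, and total RNA from it was measured at postnatal day 10 on 6 Affymetrix mouse 430.2 arrays. The 3 control arrays were from mice heterozygous for Slc26a4, which encodes the anion exchanger pendrin, and 3 were from knockout mice. The controls thus carry 1 disrupted copy, and the comparison has no wild-type group. The labels do not name the strain or the allele, nor do they say whether an array holds 1 animal or a pool. P-values therefore measure the spread between these samples, which may be partly technical, and with 3 arrays a group every estimate is imprecise.

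Chemokines are small secreted proteins that guide migrating cells through G protein-coupled receptors, and they are grouped by the spacing of their first cysteines. Cytokines include interleukins, tumour necrosis factor and colony-stimulating factors. Many of them act on receptors that signal through the JAK-STAT or NF-kappaB pathways, while transforming growth factors signal through SMAD proteins. In the stria, resident macrophages lie along the capillaries, and the growth factors Csf1 and Il34, acting on Csf1r, sustain macrophages in many tissues. Csf1 and Tnfsf11 (RANKL) together also drive the formation of osteoclasts.

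Slc26a4 itself gave signals of 221, 248 and 1006 on the heterozygous arrays and 75.5, 106 and 154 on the knockout arrays, so the labels and the targeted gene point the same way (limma adjusted p = 0.370). The strial cell markers on the array were all above background by their mean. They included dim ones, such as Pmel of intermediate cells (70.1 to 110). Others were bright on all arrays, among them Kcnq1 of marginal cells (5326 at least) and Cldn11 of basal cells (7412 at least). Knockout replicate 4 stood apart, with a median correlation of 0.932 with the other arrays, against 0.971 to 0.980 for the rest.

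The RefSeq promoter table (GRCm38.p6) held 35 of the 47 genes, with 44 start sites. The 250 bases before the start are printed for the genes that had an unadjusted p under 0.05 on any probe set above background and were in that table, since their values are described below. Capitals mark matches, on either strand and allowed to overlap, to the usual NF-kappaB consensus or to shorter motifs. The AP-1 motif was searched as TGANTCA. The STAT motif was searched as TTCNNNGAA. The letters for a TATA box were TATAAA. Ccl9 lies at chr11:83578637-83578886, Mif at chr10:75860278-75860527 and Tgfb2 at chr1:186705990-186706239, all on the minus strand.
Ccl9: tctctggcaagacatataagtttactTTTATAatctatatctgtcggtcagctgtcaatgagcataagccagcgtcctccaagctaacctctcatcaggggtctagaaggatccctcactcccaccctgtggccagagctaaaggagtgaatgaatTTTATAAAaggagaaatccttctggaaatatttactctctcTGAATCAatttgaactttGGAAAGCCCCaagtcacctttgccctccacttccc
Mif: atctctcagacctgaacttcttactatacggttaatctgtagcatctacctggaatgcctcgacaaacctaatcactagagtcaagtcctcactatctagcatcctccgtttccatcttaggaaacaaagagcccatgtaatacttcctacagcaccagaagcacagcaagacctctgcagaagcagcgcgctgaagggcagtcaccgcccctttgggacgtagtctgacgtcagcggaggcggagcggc
Tgfb2: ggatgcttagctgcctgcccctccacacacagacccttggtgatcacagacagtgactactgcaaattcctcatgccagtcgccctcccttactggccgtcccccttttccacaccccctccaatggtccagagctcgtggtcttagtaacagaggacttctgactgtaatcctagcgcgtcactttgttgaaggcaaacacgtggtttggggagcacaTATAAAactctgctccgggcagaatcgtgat

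In Tgfb2 the TATA match lay 31 to 26 bases before the start. Ccl9 had an NF-kappaB match 35 to 26 bases and an AP-1 match 53 to 47 bases before its start, and 3 matches to the TATA letters farther upstream, a pair of which overlap. The Mif window held none of the 4 motifs. Over the 44 start sites of the set, 36.4% had the TATA letters, against 12.4% of all 32851 promoters in the table. The NF-kappaB consensus was in 15.9% of the set against 3.9%, in promoters of Ccl9, Csf1, Cxcl1, Cxcl2, Il16, Il1r1 and Il6. A looser NF-kappaB pattern, which was searched first and replaced after its shares had been seen, was in 31.8% against 17.6%. The AP-1 letters were in 15.9% against 6.75%, and the STAT letters in 6.82% against 7.02%. Promoters with the TATA letters made up 28% of those of genes above background and 47.4% of those of genes below it. These shares describe letters in a window and say nothing of binding.

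None of the genes passed the test between genotypes. The limma fit over all 27022 probe sets above background called 0 of the 37 probe sets of the set at an adjusted p of 0.05, beside a background of 0.00370% (1 probe set). The smallest adjusted p in the set was 0.370. With the brightest probe set standing for each gene, 3 of 25 genes had an unadjusted p under 0.05 (12%, against 6.35% of all 12428 genes). Ccl9 was the 1 gene with a higher value in knockout samples (background 3.15%), and Ccl11 and Mif were the 2 with lower values (background 3.20%). The groups did not overlap in 6 of 25 genes (24%, against 13.1% of all genes), and each gene weighs 4% here. Cxcl16, Il15, Csf1 and Tgfb3 lay higher in every knockout sample (4 of 25, background 6.05%), and Mif and Il10rb lower (2 of 25, background 7.03%). With 3 arrays against 3, an exact two-sided permutation test of a single gene cannot give a p below 0.1.

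The direction was mixed over the set. The knockout value was higher for 14 of 25 genes and lower for 11, beside 5372 higher and 7056 lower of all 12428 genes. The median log2 difference was 0.06 in the set and -0.04 over all genes. Over the 37 probe sets of the set above background it was -0.14, with 17 higher and 20 lower, beside -0.004 over all probe sets above background. The size of the difference had a median of 0.28 in the set and 0.15 over all genes, and the median standard error was 0.23 and 0.19. Ccl11 was the 1 gene of 25 with a difference beyond 1 on the log2 scale. The median over the set turned to -0.12 without heterozygous replicate 1 and to -0.065 without knockout replicate 2. With all arrays kept it was -0.052 after quantile normalisation, -0.025 after cyclic loess, -0.14 after median centring and -0.051 with a 60th percentile filter, so its sign is not settled. Median centring, which moved the median of all genes from -0.04 to -0.24, took Cxcl16 to 0.091, Il15 to 0.10, Csf1 to 0.17 and Tgfb3 to 0.13, with their sign kept.

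**Figure D1:**
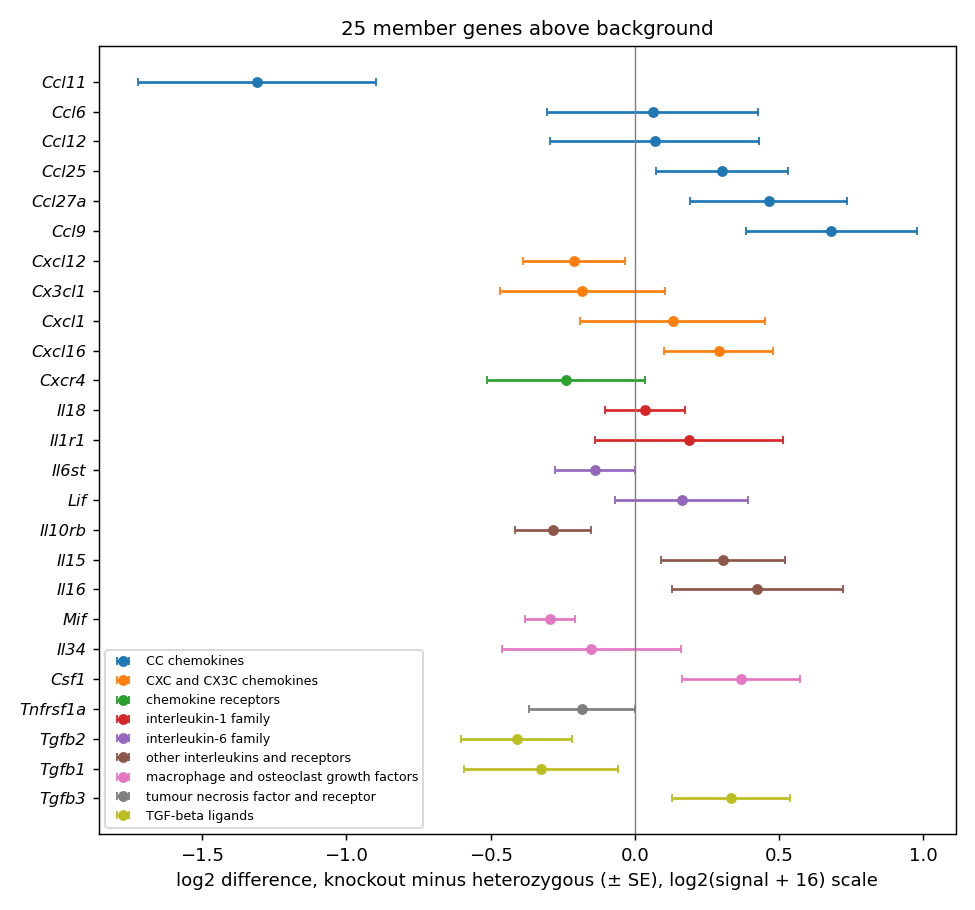
Log2 difference (knockout minus heterozygous, on the log2(signal + 16) scale) for the 25 genes above background, coloured by role, with points for the estimate from the brightest probe set and bars for the standard error. Ccl11 lies farthest to the left at -1.31 and Ccl9 farthest to the right at 0.68, and no gene passed the adjusted threshold.

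Among CC chemokines, 6 of 14 genes were above background. Ccl11 (eotaxin), which attracts eosinophils through Ccr3, gave 163, 287 and 248 on heterozygous arrays 1, 3 and 5. On knockout arrays 2, 4 and 6 it gave 182, 55.6 and 50.3. Replicates 4 and 6 lay well below every heterozygous sample, while replicate 2 lay inside the heterozygous range, so the groups overlapped. The means were 233 ± 63.2 and 95.9 ± 74.5 (SD, n = 3 each), with a log2 difference of -1.31 ± 0.41 (SE, limma adjusted p = 0.370). Leaving out single arrays gave log2 differences from -1.82 to -1.03.

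Ccl9, a mouse chemokine that acts through Ccr1 and is made by macrophages and osteoclasts, went the other way. Its signals were 43.9, 55.9 and 68.6 in heterozygous and 140, 65.7 and 102 in knockout samples. Knockout replicate 4 fell inside the heterozygous range and both other knockout samples lay above it. The log2 difference was 0.68 ± 0.30 (SE, limma adjusted p = 0.418). It was 0.93 without knockout replicate 4 and 0.46 without knockout replicate 2. The unadjusted limma p of Ccl9 was not under 0.05 with quantile normalisation, cyclic loess, median centring or no filter. The same held without heterozygous replicate 1 or 3, or without knockout replicate 2 or 6. The other Ccl9 probe set was below background, at 16.2 to 29.4 on heterozygous and 20.3 to 28.8 on knockout arrays.

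Ccl6, expressed by mouse macrophages and myeloid cells, had probe sets that disagreed. The brighter one differed by 0.06 ± 0.37 (SE) and the other by -0.62 ± 0.31. The second passed the background filter through its heterozygous values, as its knockout mean of 5.75 lay under the cutoff of 5.90 on the log2 scale, and it was the 1 probe set of 37 with only 1 group mean above the cutoff. Ccl12, a mouse ligand of the monocyte receptor Ccr2, ranged from 180 to 447 in heterozygous and from 177 to 371 in knockout samples, a log2 difference of 0.07 ± 0.36 (SE). The interval of that difference, -0.74 to 0.88 (95%), leaves room for changes in either direction.

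Ccl25, the ligand of Ccr9, stood at 399, 237 and 275 against 412, 358 and 342, a log2 difference of 0.30 ± 0.23 (SE), with 0.07 on its other probe set. Ccl27a, a chemokine of skin that binds Ccr10, gave 188, 319 and 364 against 340, 496 and 356 (0.46 ± 0.27 SE). Both overlapped between genotypes. The Ccl27a value is uncertain, because the mouse genome holds near-identical copies of this gene and 2 further probe sets annotated to several such copies were left out.

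Neighbouring CC chemokine genes differed in whether their mean passed the background cutoff. In the RefSeq gene table, Ccl2, Ccl7, Ccl11, Ccl12 and Ccl8 follow each other among the protein-coding genes, and only Ccl11 and Ccl12 of these 5 were above background. A second run of 5, Ccl5, Ccl9, Ccl6, Ccl3 and Ccl4, likewise held 2 such genes, Ccl9 and Ccl6. The monocyte attractant Ccl2, just under the cutoff, gave 46.3, 20.6 and 32.6 in heterozygous and 62.7, 21.6 and 74.7 in knockout samples. Heterozygous replicate 1 and knockout replicates 2 and 6 were over 43.9, but the gene's mean was not, so it was not tested.

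Of the 9 CXC and CX3C chemokines, 4 were above background. Cxcl16, a membrane-bound chemokine that is also a scavenger receptor and binds Cxcr6, had both of its probe sets higher in every knockout sample. The brighter one gave 378, 336 and 391 in heterozygous and 535, 409 and 425 in knockout samples, a log2 difference of 0.29 ± 0.19 (SE, limma adjusted p = 0.593), which was 0.17 without knockout replicate 2. The other gave 251, 184 and 219 against 469, 300.1 and 320, a log2 difference of 0.68 ± 0.24 (SE, limma adjusted p = 0.370). Neither passed. The groups did not overlap on 8 of the 37 probe sets of the whole set (21.6%), against 17.0% of all probe sets above background.

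Cxcl12, which with its receptor Cxcr4 guides stem cells, melanoblasts and vessels, did not separate the genotypes. Its signal was 937, 1181 and 1008 in heterozygous and 953, 730 and 1030 in knockout samples, with a log2 difference of -0.21 ± 0.18 (SE, 95% interval -0.60 to 0.18). It was -0.065 without knockout replicate 4 and -0.12 without heterozygous replicate 3. Cxcr4, the 1 receptor above background of 3 chemokine receptors, gave 1122, 1773 and 1463 against 944, 969 and 1917. Knockout replicate 6 was the highest of all 6 arrays for this gene and the other knockout samples the lowest, so the log2 difference of -0.24 ± 0.27 (SE) hides a wide spread. Leaving out single arrays moved it from -0.57 (without knockout replicate 6) to -0.065 (without knockout replicate 2), and it was -0.084 without knockout replicate 4.

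Cx3cl1 (fractalkine), the ligand of the macrophage receptor Cx3cr1, gave 93.9, 99.6 and 123 against 103, 57.2 and 123. Its log2 difference of -0.18 ± 0.29 (SE) turned to 0.089 without knockout replicate 4. Cxcl1, a neutrophil attractant, was the gene closest to the cutoff from above, at 24.7, 66.6 and 55.3 against 38.4, 58.3 and 62.1 (log2 difference 0.13 ± 0.32 SE).

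**Figure D2:**
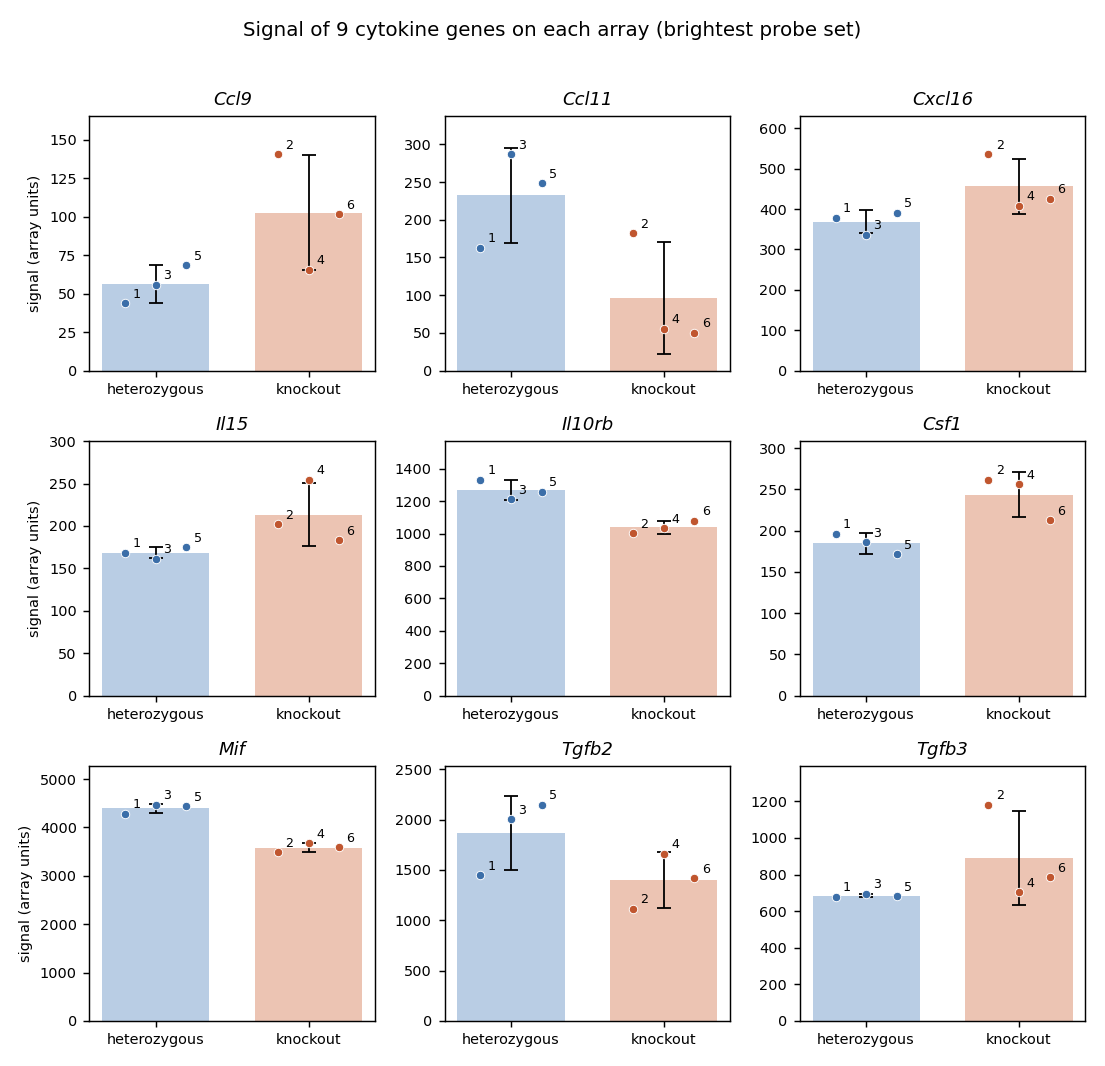
Signal in array units (linear axis from 0) of 9 genes on each array, with bars for the group mean, error bars for the SD (n = 3) and numbers for the replicate. Mif, Il10rb, Cxcl16, Il15, Csf1 and Tgfb3 do not overlap between groups, while Ccl9, Ccl11 and Tgfb2 each have a knockout sample inside the heterozygous range.

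In the interleukin-1 family, the receptor Il1r1 and the cytokine Il18 were above background of 6 genes. Il18, which is stored as a precursor and released by caspase-1, was even across arrays, at 1175, 1289 and 1175 against 1388, 1137 and 1216. Its log2 difference of 0.04 ± 0.14 (SE) had a 95% interval of -0.28 to 0.35. Il1r1, the signalling receptor of interleukin-1, gave 59.5, 149 and 154 against 146, 126 and 120, with heterozygous replicate 1 the lowest (log2 difference 0.19 ± 0.33 SE).

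Il6st (gp130), the shared signalling receptor of the interleukin-6 family, had 4 probe sets above background, all with lower knockout values. The brightest gave 2053, 2068 and 1933 in heterozygous and 1891, 1546 and 2107 in knockout samples. The groups overlapped, and the log2 differences of the 4 ran from -0.25 to -0.07 with no adjusted p under 0.677. On the brightest, the log2 difference of -0.14 was -0.015 without knockout replicate 4 and -0.24 without knockout replicate 6. Lif, a cytokine that signals through Il6st, lay near the cutoff (54.8 to 65.4 against 61.6 to 74.4, log2 difference 0.16 ± 0.23 SE).

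Il15, a growth factor for natural killer and memory T cells, gave 169, 162 and 175 in heterozygous and 202, 255 and 184 in knockout samples, so that every knockout sample was higher. The gap between the highest heterozygous and the lowest knockout sample was small beside the spread of the knockout samples (log2 difference 0.30 ± 0.21 SE, limma adjusted p = 0.624, and 0.18 without knockout replicate 4). Il10rb, the shared subunit of the receptors for interleukin-10 and interleukin-22, gave 1332, 1212 and 1259 in heterozygous and 1002, 1034 and 1080 in knockout samples, each of the latter being lower. The log2 difference was -0.28 ± 0.13 (SE, limma adjusted p = 0.444). Its other probe set, just below the cutoff and not tested, went the opposite way without overlap, at 36.3, 28.6 and 37.5 against 37.7, 75.0 and 43.6. For Il16, a ligand of CD4, the probe sets disagreed in sign (0.42 and -0.29), and in both it was knockout replicate 4 that lay farthest out, at 286 on the first and 33.2 on the second.

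**Figure D3:**
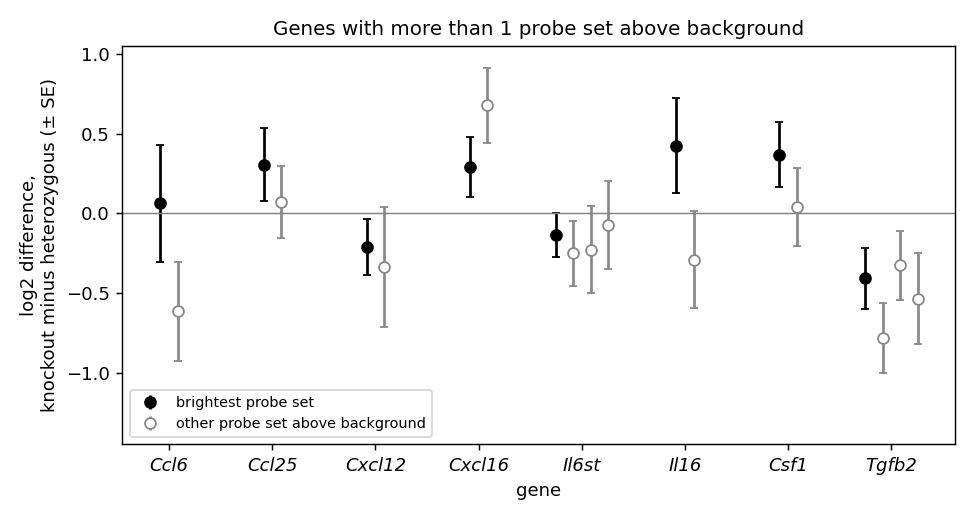
Log2 difference (knockout minus heterozygous) with its standard error for each probe set above background of the 8 genes that had more than 1, with filled points for the brightest. All probe sets above background of Ccl25, Cxcl12, Cxcl16, Il6st, Csf1 and Tgfb2 share a sign, and those of Ccl6 and Il16 do not.

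Among growth factors of macrophages and osteoclasts, Csf1 and Il34, both ligands of Csf1r, were above background. So was the cytokine Mif, which was only grouped with them for this description. Csf1 gave 196, 186 and 172 in heterozygous and 262, 256 and 213 in knockout samples, so the groups were separate. Its log2 difference of 0.37 ± 0.20 (SE) did not pass (limma adjusted p = 0.518), and the other probe set above background gave 0.04 ± 0.25. Il34 gave 287, 199 and 203 against 282, 121 and 240.0, a log2 difference of -0.15 ± 0.31 (SE), and 0.19 without knockout replicate 4. Their receptor Csf1r stood at 2071 to 3241 in heterozygous and 2395 to 3014 in knockout samples (log2 difference 0.04 ± 0.17 SE).

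Mif, a cytokine with tautomerase activity that many cell types hold in large stores, showed the tightest replicates of the set. Its signals were 4283, 4468 and 4434 in heterozygous samples. In knockout samples they were 3489, 3668 and 3586, all below the lowest heterozygous value. The means were 4395 ± 98.3 and 3581 ± 89.9 (SD, n = 3 each). The log2 difference was -0.29 ± 0.09 (SE, 95% interval -0.49 to -0.10, limma adjusted p = 0.370). Leaving out any array kept the log2 difference between -0.31 and -0.28. The 2 other probe sets annotated to Mif were below background.

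Tnfsf11 (RANKL), the osteoclast differentiation factor, was below background on both probe sets, at 1.16, 2.43 and 16.8 in heterozygous and 0.418, 26.7 and 31.5 in knockout samples on the brighter one. Of 10 osteoclast markers 4 were above background and none passed the test. Mmp9, Ctsk and Acp5 were higher in every knockout sample, with log2 differences of 2.19, 0.82 and 1.37, while Nfatc1 overlapped at -0.05 (3 of 4 without overlap, against 13.1% of all genes). Mmp9 is in this count only because it passed the background filter through its knockout values. Its heterozygous mean of 5.51 on the log2 scale lay under the cutoff of 5.90. The summed signal of that list was 791 to 847 on heterozygous and 1088 to 2269 on knockout arrays, with replicate 6 the highest. None of the list was at 0, and Calcr, Ocstamp, Oscar, Tnfrsf11a, Dcstamp and Atp6v0d2 were below background. Of the osteoblast and osteocyte markers, 6 of 8 on the array were above background, with a median log2 difference of 1.13. Among these 6, 5 had higher values and Alpl a lower one (-0.11), and none passed the test. Dmp1, Ibsp and Phex did not overlap (3 of 6, against 13.1% of all genes), while Col1a1, Sp7 and Alpl overlapped. For Dmp1 the gap was narrow, at 3265 on heterozygous replicate 5 and 3286 on knockout replicate 2. It was as narrow for Phex, at 244 and 247 on the same arrays. The summed signal of the 8 genes was 3981 to 8119 on heterozygous and 7737 to 13198 on knockout arrays, none was at 0, and Mepe and Sost were below background. The 9 pericyte and smooth muscle markers were all above background, 2 higher (Pdgfrb and Abcc9, both at 0.16) and 7 lower, with a median of -0.20. Of the 9, 2 lay lower in every knockout sample, Acta2 (-1.63) and Des (-1.13), against 7.03% of all genes, and neither passed. Des passed the background filter through its heterozygous values, with a knockout mean of 5.70 under the cutoff of 5.90. The part of these cell types in the Csf1 and Ccl9 values was not tested, and in bulk RNA more cells of a type and more RNA per cell cannot be told apart.

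Among the transforming growth factors, which signal through SMAD proteins, Tgfb2 had 4 probe sets above background, and all had lower knockout means. On the brightest, signals were 1445, 2005 and 2146 in heterozygous and 1114, 1663 and 1419 in knockout samples, overlapping through heterozygous replicate 1 and knockout replicate 4 (log2 difference -0.41 ± 0.19 SE, limma adjusted p = 0.447). This difference was -0.26 without knockout replicate 2 and -0.58 without heterozygous replicate 1. A second probe set gave 730, 1068 and 1316 against 547, 555 and 641, with no overlap and a log2 difference of -0.78 ± 0.22 (SE, limma adjusted p = 0.370). The remaining ones gave -0.33 ± 0.21 and -0.54 ± 0.29 (SE). The 4 probe sets read the same RNA on the same arrays and are not independent of each other.

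Tgfb3 lay on the opposite side, at 679, 694 and 681 in heterozygous and 1181, 702 and 785 in knockout samples. The heterozygous values were very close, and most of the difference came from knockout replicate 2. The log2 difference was 0.33 ± 0.20 (SE, limma adjusted p = 0.565) and 0.11 without that array. Tgfb1 gave 147, 111 and 134 against 114, 68.9 and 128 (log2 difference -0.33 ± 0.27 SE), and -0.10 without knockout replicate 4. No ligand of this family passed, and the difference between Tgfb2 and Tgfb3 was not tested.

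Tnfrsf1a, the main receptor of tumour necrosis factor, was above background at 1345, 1211 and 1250 against 1169, 855 and 1382 (log2 difference -0.18 ± 0.18 SE), with knockout arrays both highest and lowest. Tnf itself was below background and even, at 16.1, 19.5 and 22.6 against 21.1, 21.3 and 24.1.

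The classical inflammatory cytokines were below background by their mean over all 6 arrays. Il1b, the main secreted interleukin-1, gave 22.9, 46.3 and 34.0 in heterozygous and 36.7, 32.4 and 73.1 in knockout samples, and its knockout mean of 5.93 on the log2 scale lay just above the cutoff of 5.90. Il6 gave no more than 5.43 on any array, and Il1a no more than 12.6. Also below background were the interleukin-1 antagonist Il1rn, the alarmin Il33, the chemokines Ccl3, Ccl4, Ccl5, Ccl7, Ccl8, Ccl17, Ccl24, Cxcl2, Cxcl5, Cxcl9, Cxcl13 and Cxcl14, and the receptors Ccr1 and Ccr2. A signal below background gives only an upper bound on the level. Low expression of these genes, or expression in few cells, could not be judged by this cutoff.

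**Figure D4:**
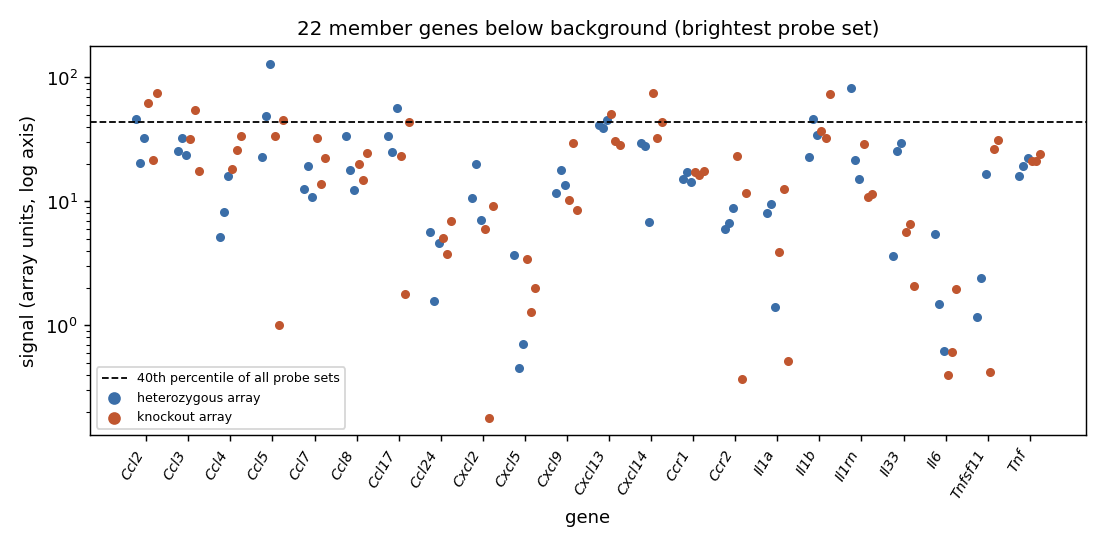
Signal in array units (log axis) of the brightest probe set of the 22 genes below background, with 1 point per array (heterozygous and knockout coloured apart) and a dashed line at the signal of 43.9 that marks the 40th percentile. Of 132 points 14 lie above the line, 3 each for Ccl2 and Ccl5, 2 each for Il1b and Cxcl13, and 1 each for Cxcl14, Ccl3, Ccl17 and Il1rn.

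The values just inside and just outside the cutoff show how thin it is. Just above it were Cxcl1 (mean of 6.02 on the log2 scale), the second Ccl6 probe set (6.06) and Lif (6.32). Just below it were another Csf1 probe set (5.87), the second Il10rb probe set (5.85) and Ccl2 (5.80), against the cutoff of 5.90.

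Other genes of the same pathways were listed separately, as receptors, ligands, signal proteins and targets outside the set. Of 177 such genes 98 were above background, and 0 passed the limma fit. An unadjusted p under 0.05 was found for 11 of 98 (11.2%, against 6.35% of all genes), 6 higher and 5 lower in knockout samples, and 20 did not overlap (20.4%, against 13.1%). Both counts include Ccr9 and Tslp, which passed the background filter only through their knockout values. Their heterozygous means of 5.59 and 5.50 on the log2 scale lay under the cutoff of 5.90. The median log2 difference of the 98 genes was -0.03.

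Among 8 other chemokine receptors above background, Ccr9, the receptor of Ccl25, gave 28.0, 33.5 and 35.7 in heterozygous and 68.7, 153 and 70.1 in knockout samples. It passed the background filter through its knockout values (log2 difference 1.15 ± 0.31 SE, limma adjusted p = 0.370). The atypical receptor Ackr4, which removes Ccl25 and other chemokines, differed by -0.36, and Ccr10, a receptor of Ccl27a, by -0.42. Of 2 other chemokines above background, Cxcl10 differed by -0.44 and Pf4 by 0.24, with SEs of 0.53 and 0.33.

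Il18r1, the ligand-binding receptor subunit for Il18, gave 88.4, 69.6 and 76.7 in heterozygous and 140, 187 and 176 in knockout samples, with no overlap. Its log2 difference was 0.96 ± 0.23 (SE, limma adjusted p = 0.370), while Il18 itself differed by 0.04. Of the 30 other cytokine receptors above background, 1 was higher and 3 were lower at an unadjusted p under 0.05 (background 3.15% and 3.20%). Tnfrsf21 (death receptor 6) differed by -0.36 and Cd74, the invariant chain that is also a receptor of Mif, by -0.84.

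Among 8 other cytokines above background, Il7, a lymphocyte growth factor, gave 155, 105 and 123 against 56.0, 71.9 and 47.5, every knockout sample being lower (log2 difference -0.95 ± 0.25 SE, limma adjusted p = 0.370). Tslp, an epithelial cytokine related to Il7, gave 33.6, 29.6 and 24.8 against 63.4, 74.6 and 55.9, so that it passed the filter through its knockout values (0.83 ± 0.24 SE). Clcf1, of the interleukin-6 family, differed by 0.42.

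All 19 genes of TGF-beta receptors, latency and targets were above background, with a median log2 difference of 0.04. At an unadjusted p under 0.05, 3 were higher and 1 lower (background 3.15% and 3.20% of all genes). Thbs1, a matrix protein that can activate latent TGF-beta, gave 312, 530.2 and 548 against 1556, 1166 and 1206 (log2 difference 1.497 ± 0.23 SE, limma adjusted p = 0.153). Ltbp2, a latent TGF-beta binding protein family member, gave 288, 367 and 332 against 707, 509 and 656 (0.88 ± 0.20 SE), and Ccn2, a TGF-beta target, differed by 0.61. Of 31 genes of NF-kappaB and STAT signalling, 0 had an unadjusted p under 0.05 (background 6.35% of all genes). Their median was -0.07, and the genes with the smallest p were Ikbkg (-0.32), Cish (-0.30) and Lcn2 (-0.77).

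Cell type markers differed between arrays beside these values. Of 22 macrophage and monocyte markers 20 were above background, with a median log2 difference of 0.06, 14 higher and 6 lower. Their summed signal was 15988 to 21944 on heterozygous and 15441 to 22879 on knockout arrays, none was at 0, and Cd163 and Itgam were below background. Knockout replicate 4 was the lowest for macrophage markers, for endothelial markers (3809, against 7399 to 12135 on the other arrays) and for granulocyte markers (340, against 1070 to 3696). It was also the lowest array for 9 of the 25 genes of the set, among them Ccl6, Ccl12, Cx3cl1, Il34 and Tgfb1. The part of cell content in these values was not tested.

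**Figure D5:**
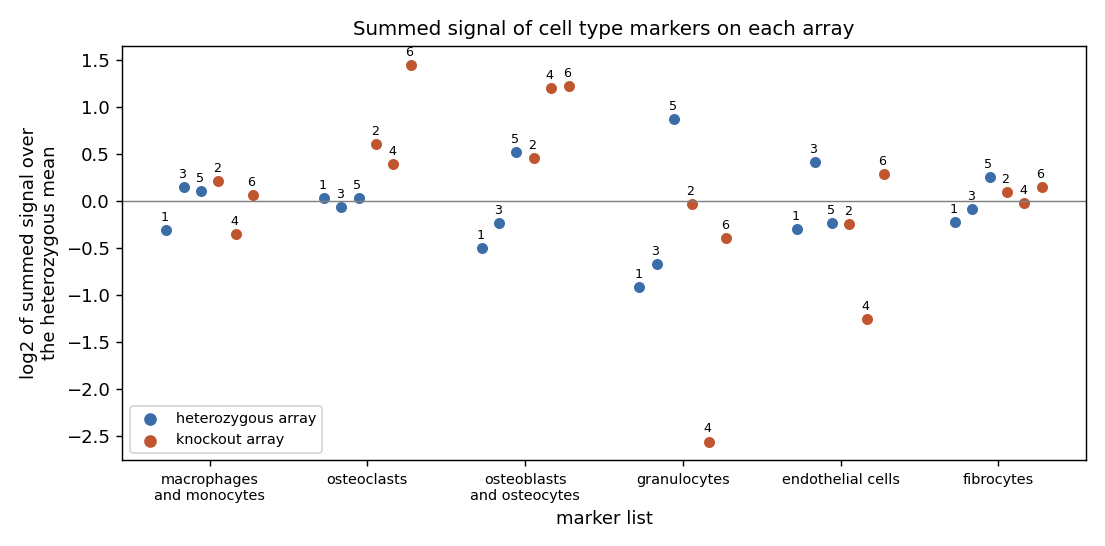
Log2 of the summed signal of 6 cell type marker lists on each array over the mean of the 3 heterozygous arrays, with numbers for the replicate. Knockout replicate 4 lies far below the rest for endothelial cells (-1.26) and granulocytes (-2.56), and all 3 knockout arrays lie above the heterozygous ones for osteoclasts.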

How the data were processed

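Per the labels' protocols, a Qiagen kit was used for extraction and NuGEN Ovation for labelling. The table deposited by the authors holds linear intensity values from GCOS, as named in the submitters' processing notes. They had been scaled alike, since the mean after 2% was trimmed from both ends was 500.002 on every array. No genome build applies to them, and depth has no meaning for arrays.

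Groups came from the sample titles. The 64 control probe sets were left out. The signal was transformed as log2(signal + 16), which understates changes of dim genes. Probe sets at or above the 40th percentile (27022) went into 1 model in limma 3.58.1 under R 4.3.3 (lmFit, eBayes with a variance trend, two-sided, Benjamini-Hochberg over all probe sets, threshold 0.05). The fit was also run on simulated data with independent noise for every value. Those data had no array that stood apart, as knockout replicate 4 did, and no result here rests on that run. Genes were named from the platform annotation (34945 probe sets with 1 symbol, 932 with several, 9160 with none), and the brightest probe set stood for a gene. Values by array are given for genes with an unadjusted p under 0.05 or groups that do not overlap, for a fixed list of 16 ligands and receptors where above background, and for others chosen after their values were seen. Up to 3 genes of each pathway list with the smallest p are named. The set, the lists and the tests were chosen with earlier results of these data known. Alternatives were other offsets, a floor, other normalisations, filters, variance models and probe set summaries, and leaving out each array. Plots used matplotlib 3.10.9 and Python 3.11.15.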

Additional observations from a re-analysis of the deposited data

How the results depend on the processing

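No probe set of the 47 genes passed under any of the 20 alternatives. Of the 15 genes followed one by one (Ccl9, Ccl11, Cxcl12, Cxcl16, Cx3cl1, Cxcr4, Il6st, Il15, Il10rb, Csf1, Il34, Mif, Tgfb1, Tgfb2 and Tgfb3), 13 kept their sign in all alternatives run. Il34 turned to 0.17 with array weights, to 0.01 without heterozygous replicate 1 and to 0.19 without knockout replicate 4, and Cx3cl1 to 0.09 without knockout replicate 4. Leaving out single arrays, Il34 ranged from -0.38 to 0.19 and Cx3cl1 from -0.37 to 0.089. The cause was not tested. The number of genes of the set with an unadjusted p under 0.05, 3 in the main fit, was 5 with no filter, 1 with a 60th percentile filter, 6 with array weights and 6 when probe sets were averaged per gene. It was 2 to 5 when single arrays were left out, the highest without knockout replicate 4, where Tgfb2 and Tgfb3 joined Ccl9, Ccl11 and Mif. Over all probe sets, 1 was called in the main fit, 4 with a floor of 32, 3 with quantile normalisation, 2 with cyclic loess, 3 with median centring, 0 with no filter, 0 with the 60th percentile filter, 25 with array weights, 11 with 1 probe set per gene, 3 with probe sets averaged per gene and 5 at an adjusted p under 0.1. It was 0 to 13 when single arrays were left out, with 13 without knockout replicate 4. Among the other pathway genes, 1 was called with array weights and 0 otherwise. Median centring moved the median of all genes from -0.04 to -0.24 and that of the set to -0.14, and without heterozygous replicate 1 the set's median was -0.12. No paired analysis was run, because the labels name no pairs and the groups share no replicate number. Whether samples were collected in pairs is not known. Signal near background limits what can be said of 22 of the 47 genes.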

Other observations

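Ccl4 and Cxcl14 were below background and outside the test, but every knockout sample lay above every heterozygous one on their brightest probe sets, an observation made after the values were seen. They were picked from the 22 genes below background, and the other genes among these overlapped. Among all genes above background 13.1% did not overlap, and the share over all genes below it was not counted. All Ccl4 values and all but 1 of the Cxcl14 values on these probe sets lay under the cutoff signal of 43.9. Ccl4, a macrophage chemokine, gave 5.18, 8.22 and 16.1 in heterozygous and 18.4, 25.9 and 34.0 in knockout samples. Cxcl14, a chemokine of epithelia and fibroblasts, gave 29.7, 27.9 and 6.86 against 75.2, 32.7 and 43.4, and its other probe set overlapped, at 13.8, 15.0 and 34.2 against 29.9, 71.1 and 38.7. Il33 was lower on knockout arrays than on 2 of the 3 heterozygous ones, at 3.65, 25.5 and 29.6 against 5.69, 6.59 and 2.08. The knockout means of both Cxcl14 probe sets (6.003 and 5.91 on the log2 scale) lay above the cutoff of 5.90, but no mean over all arrays did, so none of these genes was tested.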
